A study of Mus musculus with 12 samples.

Results

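The genes described here encode the proteins of the cytosolic ribosome. They are the protein-coding rows of the count table whose symbol is Rpsa, Rplp0, Rplp1 or Rplp2, or begins with Rpl or Rps and a number, without the Rps6k kinases and without pseudogenes. The rule gave 86 of the 39017 gene identifiers, 52 of the large subunit and 34 of the small subunit. It brings in Rps19bp1, which encodes a protein that binds Rps19 and is not itself a subunit protein. It leaves out genes such as Fau and Rack1, which encode ribosomal proteins under other symbols and are given separately.

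RNA was sequenced from stimulated CD4+ T cells of SJL mice of the core genotypes model, known by the abbreviation FCG, in which the Y chromosome (Y-) has lost Sry, the gene that directs testis formation, and a transgene brings Sry to some of the mice. The 4 groups were XXSry (X and X chromosomes with the Sry transgene), XY-Sry (X and Y- chromosomes with the transgene), XX and XY-, both without Sry, and each group had 3 libraries. Mice of all groups were gonadectomized at 4 to 6 weeks of age, with carprofen given around surgery and amoxicillin after it, and their lymph nodes were collected at 8 to 12 weeks, so the cells came from animals without gonads at the time of collection. The CD4+ T cells were enriched by removing other cells with magnetic beads and were kept with anti-CD3/CD28 beads for 36 hours, so no library of unstimulated cells is in the comparison.

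Each ribosome joins a small subunit, which reads the message, to a large subunit, which forms the peptide bond, and each subunit needs most of its proteins in equal number. The messages of these proteins share a run of pyrimidines at the 5' end, the terminal oligopyrimidine or TOP tract, through which mTOR signalling and the protein Larp1 set how much of them is translated. T cells that are activated through the antigen receptor and CD28 enlarge, turn on Myc and make many new ribosomes before they divide.

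The TOP tract is what the messages are known to have in common, so the start sites of 6 members that recur in the results are printed. They are Rpl12 and Rpl27a, which passed the test, Rps18, which came next, Rpl39 and Rps4x on the X chromosome, and Rpl4, the member with the most counts. Each window holds 15 bases before and 15 bases from the RefSeq start, on the gene's own strand, in build GRCm38.p6. Capitals mark a run of at least 5 C or T bases that begins with C, follows a purine and starts no more than 10 bases from the annotated start. A C exactly 10 bases before the start was taken to open a run after a pyrimidine too. The counted runs of Rpl7a, Rpl34 and Rps27l, not printed, were cut in this way. The opposite strand was not searched.
Rpl12, chr2:32961697-32961726, plus strand: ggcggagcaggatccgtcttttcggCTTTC
Rpl27a, chr7:109519180-109519209, plus strand: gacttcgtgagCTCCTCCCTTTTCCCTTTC
Rps18, chr17:33955651-33955680, minus strand: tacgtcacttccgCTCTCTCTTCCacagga
Rpl39, chrX:37085208-37085237, minus strand: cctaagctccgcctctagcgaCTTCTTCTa
Rps4x, chrX:102189377-102189406, minus strand: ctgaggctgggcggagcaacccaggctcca
Rpl4, chr9:64173372-64173401, plus strand: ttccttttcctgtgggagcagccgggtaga
The run of Rpl27a was 20 bases long, began 4 bases before the annotated start and ran past the end of the printed window. That of Rps18 was 11 bases long and began 2 bases before its annotated start. Those of Rpl12 and Rpl39 began 10 and 6 bases after theirs. Rps4x and Rpl4 had no run that met the rule, which says only that none began within 10 bases of the start RefSeq gives. The window of Rpl4 opens with a row of pyrimidines that began more than 10 bases before the start. It ended less than 10 bases before the start and was not counted. Of the 86 members, 66 had an entry among the RefSeq starts, with 78 starts in all. The annotated first base was C and opened at least 5 pyrimidines in a row at 14 of the 78 starts (17.9%), against 823 of 32851 starts of all genes (2.51%). A run as marked by the capitals was found at 33 of the 78 (42.3%), against 24.5% of the starts of all genes. The large subunit had it there at 21 of 47 starts and the small subunit at 12 of 31. The starts of Rpl28, Rpl38, Rplp2 and Rps15a are among the 14 and not among the 33. The row of pyrimidines around their first base begins with T. Rpl17, Rpl21, Rpl23a, Rpl29, Rpl3, Rpl30, Rpl32, Rpl36, Rpl7, Rpl8, Rplp1, Rps14, Rps20, Rps27a and Rps29 were among those with no entry.

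Total counts per library ran from 11664186 to 16710188, and 14585 genes passed the filter on low counts. The X-inactivation RNA Xist had 40532 to 51786 counts in the XXSry and XX libraries and 36 to 70 in the XY-Sry and XY- libraries, and Sry had 1349 to 2132 counts in the libraries labelled with it and 0 to 1 in the others, as the labels have it. All 8 CD4 T cell markers were detected, with a summed level of 3390 to 3832 CPM (counts scaled to a common library size with the TMM factor), and of the 4 erythroid markers Hba-a1 was at 0 in every library and the others were detected, with a summed level of 0.436 to 0.599 CPM. All 5 markers each of CD8 T and NK cells, of B cells and of myeloid cells were detected, at summed levels of 14.1 to 19.5, 2.15 to 5.01 and 15.7 to 21.2 CPM, and all 4 markers of stroma and endothelium at 78.9 to 125.3 CPM. The labels do not tie libraries to mice, so p-values measure how libraries of a group scatter, and that scatter may be technical.

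1 library stood apart in the abundant ribosomal protein genes. Each library was set against the mean of the other libraries of its group over the 31 members with at least 10000 counts, where counting noise is small. In XX replicate 3, 14 of the 31 departed by more than 1.3-fold, 5 of them higher and 9 lower. In the 9 libraries of the other groups none did, and XX replicates 1 and 2 also differed from each other by no more than that in any of the 31. Over all 79 tested members, those with few counts included, every library had departures. They were 9 higher and 18 lower in XX replicate 3, 10 and 7 in XX replicate 2, and 0 and 12 in XY- replicate 2. Rpl23, of the large subunit, had 249.4 CPM in XX replicate 3, against 133.1 and 118.9 CPM in XX replicates 1 and 2. Rpl41, the shortest ribosomal protein, had 398.6 CPM there, against 217.7 and 206.5 CPM. Rps4x went the other way, with 158.2 CPM in XX replicate 3, against 279.1 and 281.9 CPM. The same library had 5.01% of its counts in mitochondrially encoded genes, against 2.27% to 2.87% in the other libraries, and the lowest total count, and the part of either in these departures was not tested. Medians of the members in comparisons that use XX are therefore given with and without it, as are several single genes.

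**Figure D1:**
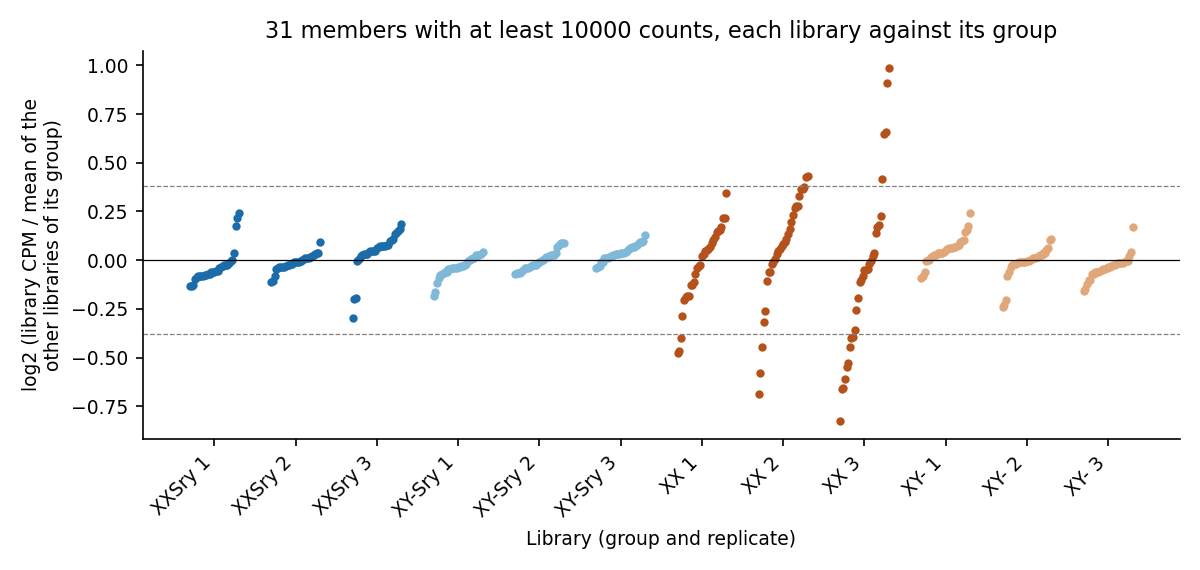
Log2 ratio of each library's CPM to the mean of the other libraries of its group (y axis), for the 31 members with at least 10000 counts (points, sorted within a library), by library (x axis). Dashed lines mark 1.3-fold. Points of the XXSry, XY-Sry and XY- libraries stay within the lines, while 14 points of XX replicate 3 lie outside them. XX replicates 1 and 2 are set against a mean that includes replicate 3.

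Levels per length, as TPM (counts divided by annotated exon length and scaled to a common sum), spread over more than 3 orders of magnitude, although most of the proteins are needed in equal number. The median member was at 43.3 TPM in the large subunit and at 27.4 TPM in the small subunit. The highest large subunit genes were Rplp1, an acidic protein of the stalk that recruits elongation factors, at 4841 TPM (4424 to 5053 over the 12 libraries), Rpl8, which lies near the peptidyl transferase centre, at 4149 TPM, and Rpl4, which lines the exit tunnel, at 3894 TPM. The highest small subunit gene was Rps15 at 2730 TPM, and Rps26, which contacts the message upstream of the start codon, was at 878 TPM. The length used joins all annotated exons of a gene, so levels and their order also depend on the annotation. Rps15 had 94001 counts on 630 bases, while Rps3 had 214504 counts on 4483 bases and was at 874 TPM. The lowest that passed the filter were Rpl35 at 4.10, Rpl26 at 4.204 and Rpl34 at 4.31 TPM in the large subunit, and Rps13 at 0.934, Rps16 at 3.42 and Rps7 at 4.55 TPM in the small subunit. All members together had 2792974 counts over the 12 libraries, and the 5 highest, among them Rpl4 with 426420, Rpl8 with 308780, Rplp0 with 254985 and Rps3 with 214504, held 50.5% of them. The median member had 5113 counts.

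Many of these genes have processed pseudogenes that copy their message, and no source used here says how reads that match several places were counted. At least 50% of the 50-base words of 29 members also occurred in another annotated gene, and their median level was 25.9 TPM, against 54.8 TPM for the other 57 members. Across the 86 members the level ran weakly against the share of such words (Spearman's rho -0.25), a description over genes that share the same libraries. The table held 406 pseudogene rows with a stretch of at least 100 bases at 95% identity or more to a member, and these rows held 694457 counts. In 27 members the near-identical pseudogenes had more counts than the gene itself. Rpl3, of the core of the large subunit, had 1286 counts and its X-linked copy Rpl3-ps1 had 41816. Rps13 had 138 counts and Rps13-ps2 had 12970, and Rps29 had 237 counts and its copy Gm14303 had 30413. Levels of such genes are therefore uncertain.

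**Figure D2:**
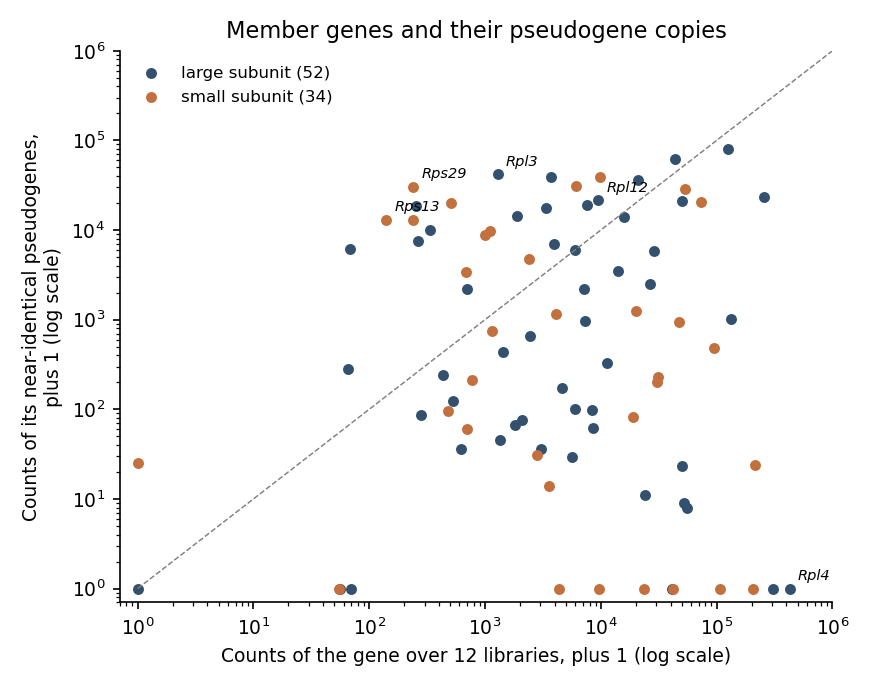
Counts of each member over the 12 libraries (x axis, log scale) against the counts of its near-identical pseudogene rows (y axis, log scale), both plus 1, by subunit. The dashed line marks equal counts. The 27 members above the line, among them Rpl3, Rps13, Rps29 and Rpl12, have fewer counts than their copies, while Rpl4 has no such copy with counts.

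Of the 86 members, 79 passed the filter, 47 of the large and 32 of the small subunit. The 7 that failed were Rpl29 with 64 counts over all libraries, Rpl38 with 67, Rps27 with 54, Rpl3l with 55, Rpl39l with 68, and Rpl10l and Rps27rt with 0 each. Rpl3l is the form of Rpl3 used by striated muscle and Rpl10l and Rpl39l are known from the testis. Their counts per group were low in each group, for Rpl39l 14 in XXSry, 12 in XY-Sry, 20 in XX and 22 in XY-. Rpl29, Rpl38 and Rps27 encode standard subunit proteins, and 6115 counts lay in near-identical pseudogenes of Rpl38.

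Scatter between replicates was set beside that of all genes by a pair of measures. The median SD within a group of log2(CPM + 1) was 0.156 over the members that passed the filter (0.145 in the large and 0.172 in the small subunit), against 0.124 over all genes tested. The SD, over genes, of the log2 ratio of a library to the mean of the others of its group was lower over the members than over all genes in 11 of the 12 libraries, and in XX replicate 3 it was higher (0.471 over the members, against 0.397 over all genes).

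As a share of each library's counts, the members held 1.48%, 1.497% and 1.54% in the XXSry libraries, against 1.56%, 1.58% and 1.62% in the XY-Sry libraries. They held 1.53%, 1.61% and 1.52% in XX, against 1.63%, 1.597% and 1.58% in XY-. All XXSry libraries lay below all XY-Sry libraries, and XX overlapped XY-. The group means were 1.51% ± 0.028 in XXSry, 1.59% ± 0.032 in XY-Sry, 1.55% ± 0.050 in XX and 1.602% ± 0.024 in XY- (SD, n = 3 each), and the XX mean was 1.57% without replicate 3. Because 5 genes hold 50.5% of the sum, the share mostly follows them. Large subunit genes held 0.960% ± 0.015 in XXSry, 1.01% ± 0.020 in XY-Sry, 0.992% ± 0.021 in XX and 1.02% ± 0.014 in XY-, and small subunit genes 0.546% ± 0.013, 0.571% ± 0.012, 0.559% ± 0.034 and 0.579% ± 0.010 in the same order of groups. The ratio of large to small subunit counts was 1.76 ± 0.013 in XXSry, 1.78 ± 0.0035 in XY-Sry, 1.78 ± 0.092 in XX and 1.77 ± 0.011 in XY-. It lay between 1.70 and 1.78 in 11 libraries and was 1.88 in XX replicate 3.

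**Figure D3:**
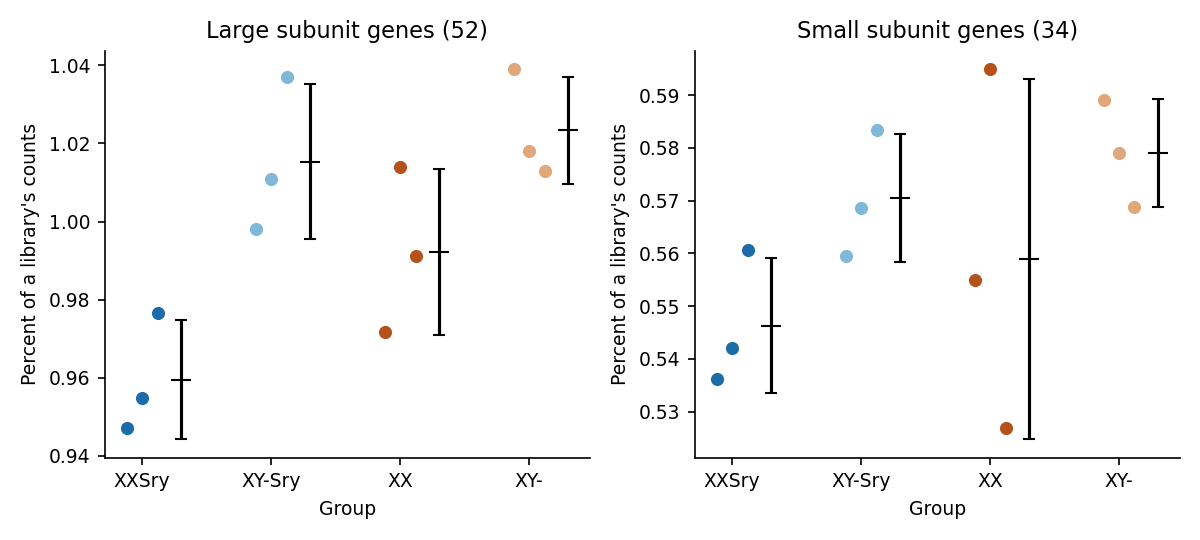
Percent of each library's counts (y axes, which do not start at 0) in the 52 large subunit genes (left) and the 34 small subunit genes (right), by group (x axis). Points are libraries and bars are the mean and SD of 3. The XXSry libraries lie below all XY-Sry libraries for large subunit genes (0.947% to 0.976% against 0.998% to 1.04%), and reach into them for small subunit genes.

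Between cells with 2 X chromosomes and cells with an X and a Y-, Rpl12 was the member that passed the test, and it was lower with 2 X chromosomes. The other members had small differences, negative in most genes of both subunits. Over the mean of both gonad types (the XX minus XY- and XXSry minus XY-Sry differences averaged), 67 of the 79 members had a negative log2 change and 12 a positive one, with a median of -0.11, against 0.01 over all genes tested. Both subunits had this direction, with 39 of 47 large subunit genes negative at a median of -0.11 and 28 of 32 small subunit genes negative at a median of -0.11. At an adjusted p under 0.05 in edgeR, 1 member was called, Rpl12, lower, against 0.137% of all genes tested called in either direction. An unadjusted p under 0.05 was found in 24 members (30.4%), against 14.2% of all genes. All libraries with 2 X chromosomes lay below all of their X and Y- counterparts in both pairs of groups in 3 members, Rpl12, Rpl8 and Rps2, against 1.06% of all genes, and above them in none, against 1.09%. Without XX replicate 3 the median of the members was -0.07, with 67 of 81 negative, and none was called. In that fit the large subunit had 40 of 49 negative at a median of -0.09. The small subunit had 27 of 32 negative at a median of -0.05. An unadjusted p under 0.05 was then found in 24 of 81 members, against 1969 of 14775 genes.

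Rpl12 (ENSMUSG00000038900, chr2:32961559-32965345 in GRCm38) encodes a protein at the base of the stalk where elongation factors bind. It had 49.2, 47.7 and 40.6 CPM in XXSry, against 59.0, 62.8 and 62.6 CPM in XY-Sry. It had 51.4, 49.5 and 43.9 CPM in XX, against 59.0, 51.7 and 59.3 CPM in XY-. The groups did not overlap in either pair, although the highest XX library and the lowest XY- library nearly met. The log2 change was -0.33 ± 0.06 (SE) over both gonad types, with an edgeR adjusted p of 0.0464. Of its 50-base words, 49.4% occur in another gene, and its pseudogene Gm10275 had 21492 counts, against 9509 of Rpl12 itself. With the near-identical pseudogenes added to Rpl12 the log2 change was -0.15 and the edgeR adjusted p 0.241. The call was also lost with an offset for gene length (edgeR adjusted p 0.0738). Of the 12 fits that left out 1 library, 10 lost the call, among them that without XX replicate 3 (log2 change -0.30, edgeR adjusted p 0.0890), and those without XY- replicate 2 or XXSry replicate 1 kept it.

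The members next to Rpl12 by p were Rps18, Rpl10a, Rpl27 and Rps28, and none passed the threshold in edgeR. Rps18, in the head of the small subunit, had 17.5, 17.6 and 17.0 CPM in XXSry, against 19.8, 23.4 and 22.2 CPM in XY-Sry, and 17.7, 17.0 and 19.8 CPM in XX, against 22.0, 19.7 and 23.8 CPM in XY-. It did not overlap between XXSry and XY-Sry, and XX and XY- overlapped through 1 library each (log2 change -0.30 ± 0.07 over both gonad types, edgeR adjusted p 0.122, and -0.33 without XX replicate 3). Rpl10a, the protein of the L1 stalk near the exit site, had 109.9, 100.4 and 85.7 CPM in XXSry, against 116.1, 131.1 and 132.4 CPM in XY-Sry. In XX it had 116.7, 109.9 and 112.9 CPM, against 128.7, 115.4 and 137.1 CPM in XY- (log2 change -0.26 ± 0.06, edgeR adjusted p 0.137). Its near-identical pseudogenes held 36368 counts, against 20775 of the gene, and with them added its change was -0.11 over both gonad types and -0.17 in XXSry minus XY-Sry. DESeq2 called Rpl10a and Rps18 along with Rpl12. Rpl27 had a log2 difference of -0.29 ± 0.08 (edgeR adjusted p 0.225) and Rps28, with 682 counts in all, of -0.48 ± 0.15 (edgeR adjusted p 0.242), and the value for Rps28 was 0.01 with its near-identical pseudogenes added.

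**Figure D4:**
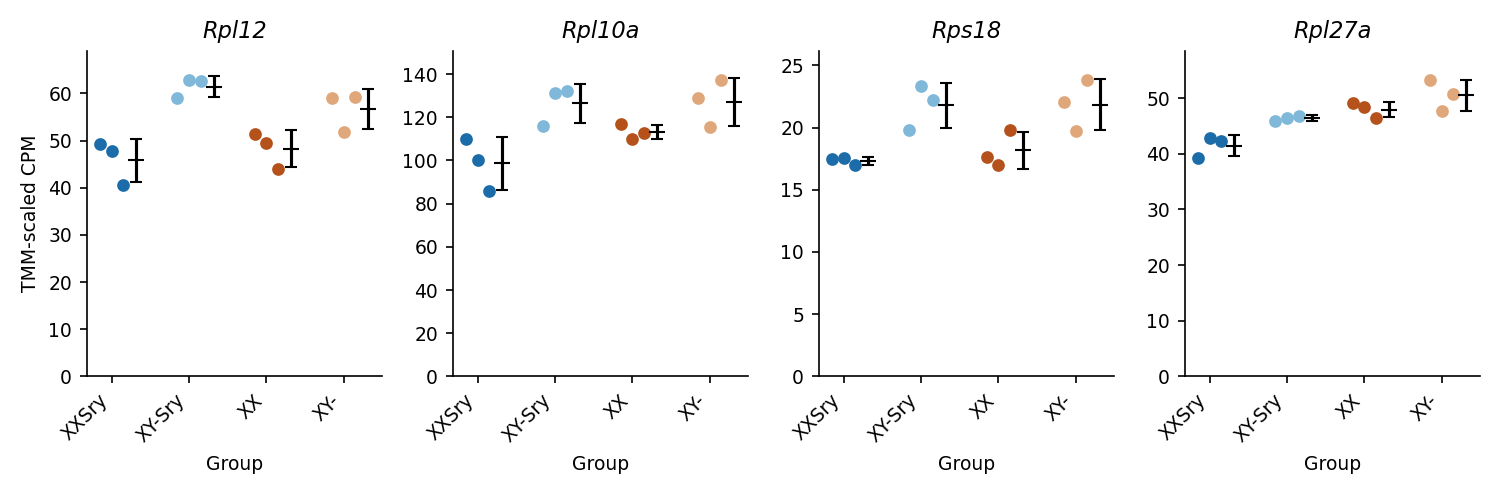
TMM-scaled CPM (y axes, from 0) of Rpl12, Rpl10a, Rps18 and Rpl27a by group (x axis). Points are libraries and bars are the mean and SD of 3. Rpl12, Rpl10a and Rps18 are lower in XXSry than in every XY-Sry library, and Rpl27a is lower in each group with Sry than in its counterpart without it.

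Among Sry carriers nearly all members had a negative change between sex chromosomes. In XXSry minus XY-Sry, 72 of 79 members were negative and 7 positive, with a median of -0.13, against 0.003 over all genes. The median was -0.077 without XY-Sry replicate 3, -0.084 with a filter at a mean of 50 reads and -0.085 with near-identical pseudogenes added. The large subunit had 43 of 47 negative at a median of -0.13 and the small subunit 29 of 32 at a median of -0.09. All 3 XXSry libraries lay below all 3 XY-Sry libraries in 22 members (27.8%), against 9.88% of all genes, and above them in 1, Rpl23, against 10.3% of all genes. The 22 comprised 14 large and 8 small subunit genes. None was called in edgeR, against 0.103% of all genes, 16 had an unadjusted p under 0.05 (20.25%, against 10.4% of all genes) and DESeq2 called Rpl12. Rpl12 had the lowest p (log2 change -0.42 ± 0.08, edgeR adjusted p 0.118, and -0.19 with near-identical pseudogenes added), then Rpl10a (log2 change -0.36 ± 0.09, edgeR adjusted p 0.358), Rpl27 (log2 change -0.43 ± 0.12) and Rps18 (log2 change -0.33 ± 0.10). Rpl10 on the X chromosome, which is built in late in assembly of the large subunit, had 31.1, 24.2 and 28.6 CPM in XXSry, against 33.4, 38.6 and 41.6 CPM in XY-Sry (log2 change -0.44 ± 0.13, edgeR adjusted p 0.452).

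Among cells without Sry most members were also negative, and the size of the median moved with the libraries that were left out. In XX minus XY-, 57 of 79 were negative and 22 positive, with a median of -0.08, against 0.002 over all genes, and the large subunit (32 of 47 negative, median -0.07) and small subunit (25 of 32 negative, median -0.12) both had the direction. Without XX replicate 3, 49 of 81 were negative at a median of -0.04, with medians of -0.05 in the large and -0.03 in the small subunit. The median was -0.048 without XY- replicate 1, -0.126 without XY- replicate 2 and -0.145 without XX replicate 2. No member was called, against 0.103% of all genes, and DESeq2 called none. An unadjusted p under 0.05 was found in 12 members (15.2%, against 6.37% of all genes). Without XX replicate 3 it was found in 5 of 81, against 633 of 14775 genes. All 3 XX libraries lay below all 3 XY- libraries in 7 members (Rpl12, Rpl35a, Rpl37a, Rpl8, Rps2, Rps29 and Rps7), against 5.07% of all genes. They lay above in 1, Rps16, against 4.67%.

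Among the members with the lowest p in XX minus XY-, Rps18 and Rpl12 had log2 changes of -0.27 ± 0.10 and -0.23 ± 0.08, each with an edgeR adjusted p of 0.742, and of -0.33 and -0.17 without XX replicate 3. With near-identical pseudogenes added the change of Rpl12 here was -0.12. Rps7 had 2.43, 2.61 and 1.87 CPM in XX, against 3.66, 2.87 and 3.24 CPM in XY- (log2 change -0.48 ± 0.19). The change of Rps7 was -0.37 without XX replicate 3 and -0.24 with its near-identical pseudogenes added, which held 19939 counts, against 505 of the gene. Rps29 had 0.747, 0.892 and 1.07 CPM in XX, against 1.80, 1.58 and 1.12 CPM in XY- (log2 change -0.74 ± 0.30), the largest change of any member here, on 237 counts in all libraries. With its near-identical pseudogenes added the change of Rps29 was 0.01, and without XX replicate 3 it was -0.86.

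The size of the sex chromosome difference went with how many reads a member had. Over both gonad types the 48 tested members with under 10000 counts had a median log2 change of -0.18, with 43 negative, and the 31 with at least 10000 counts had a median of -0.05, with 24 negative. In XXSry minus XY-Sry these medians were -0.25 and -0.06. The 28 tested members with at least 50% of their 50-base words shared had a median of -0.19 over both gonad types, against -0.09 for the other 51. Among the abundant members Rpl8 had 1690, 1705 and 1735 CPM in XXSry, against 1827, 1776 and 1847 CPM in XY-Sry, and 1604, 1680 and 1590 CPM in XX, against 1746, 1755 and 1742 CPM in XY-. The groups of Rpl8 did not overlap in either pair, with -0.10 ± 0.03 on the log2 scale (edgeR adjusted p 0.259). Rpl8 is named here after its values were seen. The part of counting depth and of shared reads in these differences was not tested.

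**Figure D5:**
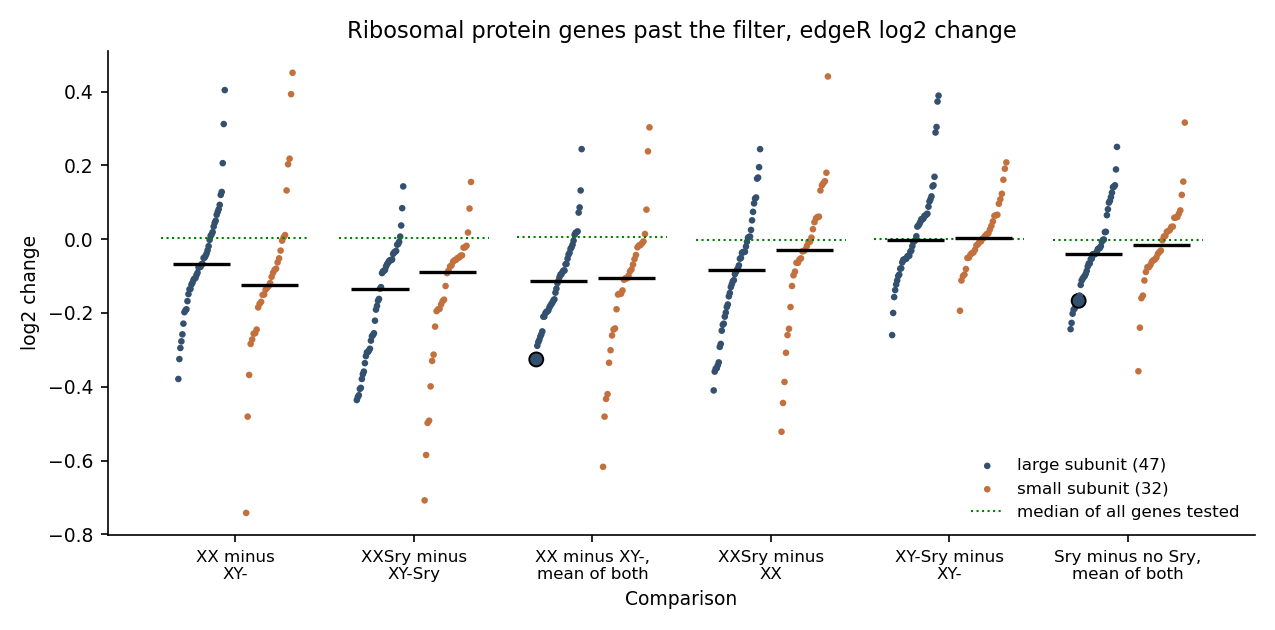
Log2 change (y axis, edgeR) of the 47 large and 32 small subunit genes that passed the filter, in 6 comparisons (x axis). Points are genes, black lines are medians of a subunit, dotted lines are medians of all genes tested, and ringed points are Rpl12 and Rpl27a, the members called at an adjusted p under 0.05. The medians lie below 0 in the 3 comparisons of sex chromosomes (-0.07 to -0.13), and nearer 0 in XY-Sry minus XY-.

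For Sry against no Sry, Rpl27a was the member that passed the test, and it was lower with Sry. Over the mean of both sex chromosome types, 51 of 79 members were negative and 28 positive in Sry minus no Sry, with a median of -0.04, against 0 to 2 decimals over all genes. The large subunit had 34 of 47 negative at a median of -0.04 and the small subunit 17 of 32 at a median of -0.02. In edgeR 1 member was called, Rpl27a, lower (1 of 79), against 5.44% of all genes tested, and no test of that difference was made. An unadjusted p under 0.05 was found in 8 members (10.1%), against 20.99% of all genes. All libraries with Sry lay below all of their counterparts without it in both pairs in Rpl27a alone, against 3.02% of all genes, and above them in Rpl8 alone, against 2.61%. Without XX replicate 3 the median was -0.04 and edgeR called Rpl27a and Rps20. In that fit 33 of 49 large and 23 of 32 small subunit genes were negative. An unadjusted p under 0.05 was then found in 16 of 81 members, against 3078 of 14775 genes. The median was -0.011 without XX replicate 2 and -0.059 without XY- replicate 2.

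Rpl27a (ENSMUSG00000046364, chr7:109519147-109522367 in GRCm38) encodes a protein of the large subunit core, and its start carried the longest marked pyrimidine run among the 6 printed. It had 39.2, 42.8 and 42.3 CPM in XXSry, against 49.0, 48.3 and 46.5 CPM in XX. It had 45.9, 46.5 and 46.8 CPM in XY-Sry, against 53.2, 47.6 and 50.8 CPM in XY-. The groups did not overlap in either pair. The log2 change was -0.17 ± 0.04 (SE), with an edgeR adjusted p of 0.0390. Near-identical pseudogenes held 97 counts, against 8330 of the gene, and the change was -0.17 with them added (edgeR adjusted p 0.0342). The call was lost in 9 of the 12 fits that left out 1 library, where the log2 change ran from -0.19 to -0.15, and was kept without XX replicate 3, XY- replicate 2 or XXSry replicate 3. It was also lost with no filter on low counts (edgeR adjusted p 0.120).

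Rpl39, which lines the exit tunnel and lies on the X chromosome, came next in the mean Sry comparison. It had 72.1, 74.1 and 77.3 CPM in XXSry, against 76.95, 91.0 and 86.2 CPM in XX, and 75.0, 71.9 and 75.7 CPM in XY-Sry, against 88.3, 83.1 and 76.8 CPM in XY-. XXSry reached just into XX and XY-Sry did not reach XY- (log2 change -0.17 ± 0.05 over both, edgeR adjusted p 0.0567), and DESeq2 called it. Rpl27 had a positive change, with 20.3, 21.2 and 21.7 CPM in XY-Sry, against 16.9, 14.8 and 16.4 CPM in XY-, and 18.2, 15.3 and 13.6 CPM in XXSry, against 16.7, 13.9 and 12.6 CPM in XX. The pair with a Y- chromosome did not overlap and the pair without one did (log2 change 0.25 ± 0.08 over both, edgeR adjusted p 0.0987). Rpl5, which with Rpl11 and 5S RNA forms the particle that can bind the p53 ligase Mdm2, had a log2 difference of -0.17 ± 0.06 (edgeR adjusted p 0.132), and -0.09 with its near-identical pseudogenes added. Rpl7l1, a paralog of Rpl7, had a log2 difference of 0.14 ± 0.05 (edgeR adjusted p 0.137).

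Within XX chromosomes, XXSry minus XX had 54 of 79 members negative and 25 positive at a median of -0.05, with -0.08 in the large and -0.03 in the small subunit, against -0.002 over all genes. Without XX replicate 3 it was 61 of 81 negative at a median of -0.08, with -0.08 in the large and -0.08 in the small subunit. Without XX replicate 2 the median was -0.025. No member was called, against 0.453% of all genes, and DESeq2 called none. An unadjusted p under 0.05 was found in 11 members (13.9%, against 14.0% of all genes). Without XX replicate 3 it was found in 15 of 81, against 1706 of 14775 genes. The XXSry libraries lay below all XX libraries in 9 members (Rpl27a, Rpl3, Rpl30, Rpl4, Rpl5, Rps12, Rps25, Rps28 and Rps3), against 7.99% of all genes, and above them in Rpl8, against 8.08%. Lowest by p were Rpl27a (log2 change -0.21 ± 0.06, edgeR adjusted p 0.152), Rps25 (log2 change -0.44 ± 0.16, edgeR adjusted p 0.226), Rpl30 (log2 change -0.36 ± 0.13), Rpl5 (log2 change -0.25 ± 0.09) and Rpl39 (log2 change -0.18 ± 0.07). With near-identical pseudogenes added the changes were -0.03 for Rps25, whose copy held 8863 counts against 991 of the gene, -0.12 for Rpl5 and -0.09 for Rpl39.

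With an X and a Y- chromosome, XY-Sry minus XY- had 39 of 79 members negative and 40 positive at a median of 0.001, equal to that of all genes. No member was called, against 0.679% of all genes, 3 had an unadjusted p under 0.05 (3.797%, against 12.7% of all genes) and DESeq2 called none. The XY-Sry libraries lay below all XY- libraries in 6 members (Rpl22, Rpl27a, Rpl35a, Rpl39, Rpl6 and Rps20), against 11.6% of all genes, and above them in 5 (Rpl26, Rpl27, Rpl41, Rpl7l1 and Rpl8), against 11.1%. Lowest by p were Rpl27 (log2 change 0.39 ± 0.12, edgeR adjusted p 0.152), Rpl7l1 (log2 change 0.17 ± 0.07, edgeR adjusted p 0.362), Rpl39 (log2 change -0.16 ± 0.07), Rpl27a (log2 change -0.12 ± 0.06) and Rpl35a (log2 change -0.26 ± 0.14).

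No member's sex chromosome difference was shown to depend on Sry. In the interaction, (XXSry minus XY-Sry) minus (XX minus XY-), 51 of 79 members were negative at a median of -0.05, none was called, as was true of all genes (0%), 2 had an unadjusted p under 0.05 (2.53%, against 2.64% of all genes) and DESeq2 called none. These were Rpl10 (log2 change -0.48 ± 0.18) and Rpl30 (log2 change -0.41 ± 0.18), each with an edgeR adjusted p of 1.00. Rpl41 (log2 change -0.48), Rps25 (log2 change -0.41) and Rpl7 (log2 change -0.24) followed, and without XX replicate 3 the changes of Rpl41 and Rpl7 were -0.12 and -0.09. In that fit 68 of 81 members were negative at a median of -0.09, again with none called. An unadjusted p under 0.05 was then found in 4 of 81, against 356 of 14775 genes. Without XY-Sry replicate 3 the median was -0.024. With near-identical pseudogenes added the change of Rps25 was 0.06.

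The X-linked members are Rps4x, Rpl10, Rpl36a and Rpl39, so that cells with 2 X chromosomes carry a second copy of each. None of the 4 was higher by the test in cells with 2 X chromosomes. Rps4x, of the small subunit, had 262.9, 252.2 and 282.5 CPM in XXSry, against 258.9, 264.9 and 286.6 CPM in XY-Sry, and 279.1, 281.9 and 158.2 CPM in XX, against 280.8, 263.6 and 269.6 CPM in XY-. Both pairs overlapped (log2 change -0.10 ± 0.10 over both gonad types, edgeR adjusted p 0.691). Without XX replicate 3 its log2 change over both gonad types was 0.01 ± 0.04 (edgeR adjusted p 0.919). Rpl39 had a log2 difference of 0.02 ± 0.05 (edgeR adjusted p 0.874), Rpl10 of -0.20 ± 0.09 (edgeR adjusted p 0.343) and Rpl36a, which lies near the exit site of the large subunit, of -0.21 ± 0.10 (edgeR adjusted p 0.354). Without XX replicate 3 these differences were 0.01, -0.25 and -0.18, and with near-identical pseudogenes added that of Rpl39 was -0.01. Rpl36a had 7.21, 6.34 and 6.62 CPM in XXSry, against 7.79, 9.62 and 7.40 CPM in XY-Sry, and did not overlap there, and 7.96, 7.46 and 6.50 CPM in XX, against 8.91, 6.90 and 8.10 CPM in XY-, which overlapped.

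Paralogs were set beside their standard partners per length. Rpl22, needed for the development of alpha beta T cells in mice, was at 351.1 TPM, and its paralog Rpl22l1 at 64.7 TPM. Rpl7 was at 344.9 TPM and Rpl7l1 at 139.5 TPM. Rpl39 was at 179.9 TPM, against 1.48 TPM for Rpl39l, and Rpl3 at 7.38 TPM, against 0.622 TPM for Rpl3l. For 2 pairs the paralog was listed higher, Rpl36al at 75.9 TPM against Rpl36a at 14.9 TPM, and Rps27l, which p53 can induce, at 216.8 TPM against Rps27 at 0.953 TPM. Of the 50-base words of Rpl36a 85.5% and of Rps27 46.2% are shared with another gene, so these orders are uncertain. Rpl39l and Rpl3l failed the filter and were not tested, and none of the paralogs that were tested passed in any comparison. Rps27l had a log2 difference of -0.15 ± 0.07 (edgeR adjusted p 0.361) and Rpl36al of -0.05 ± 0.07 (edgeR adjusted p 0.765) between sex chromosomes over both gonad types, the value for Rpl36al being 0.01 without XX replicate 3. Rps19bp1 was at 73.9 TPM and Rps19 at 15.9 TPM. Their counts were close, 4367 and 4065, and their annotated exon lengths were 1083 and 4685 bases, so this order follows the lengths and is uncertain too. Rps19bp1 had a log2 difference of -0.09 ± 0.08 in the same comparison (edgeR adjusted p 0.616).

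Rack1 and Fau, ribosomal proteins with other symbols, did not pass the test in any comparison. Rack1, a scaffold of the small subunit with 281241 counts, had a log2 difference of -0.06 ± 0.05 between sex chromosomes over both gonad types, and Fau, whose product is cut to a small subunit protein, of 0.04 ± 0.10 (edgeR adjusted p 0.553 and 0.889).

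Of the 15 elongation factors and other genes with TOP messages, none was called. Over both gonad types 9 of 15 were negative at a median of -0.01, and in XXSry minus XY-Sry 9 of 15 at a median of -0.01, with 2 (13.3%) and 1 (6.67%) at an unadjusted p under 0.05, against 14.2% and 10.4% of all genes. Eef1a1, which brings tRNA to the ribosome, had a log2 difference of 0.03 ± 0.04 over both gonad types, and Eef2, which moves the message along, of -0.02 ± 0.04. Chaperones and assembly factors of ribosomal proteins, with Mdm2, were negative in 8 of 8 over both gonad types at a median of -0.13, with 3 at an unadjusted p under 0.05 (37.5%, against 14.2% of all genes) and none called. Proteins of the mitochondrial ribosome, which are made in the same cytosol for another ribosome, were negative in 67 of 76 at a median of -0.09, and in XXSry minus XY-Sry in 72 of 76 at a median of -0.12, again with none called and 22 (28.95%) and 16 (21.05%) at an unadjusted p under 0.05, against 14.2% and 10.4% of all genes.

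Of the 11 regulators of TOP messages, 2 passed the test for Sry, against 5.44% of all genes, and none for the sex chromosomes, against 0.137%. Of these genes, Eif4ebp1, the mTOR target that holds back cap-dependent initiation, and Rps6kb2, a kinase of ribosomal protein S6, were called lower in Sry minus no Sry, and Eif4ebp1 also in XY-Sry minus XY-, where 0.679% of all genes were called. Eif4ebp1 averaged 35.4 ± 1.3 CPM with XXSry and 31.6 ± 2.6 CPM with XY-Sry, against 46.5 ± 3.7 CPM in XX and 44.8 ± 6.2 CPM in XY- (SD, n = 3 each), a log2 change of -0.45 ± 0.07 (SE, edgeR adjusted p 0.00262), and -0.47 without XX replicate 3. Rps6kb2 averaged 19.1 ± 2.2 CPM in the XXSry group and 19.5 ± 1.1 CPM in XY-Sry, against 24.8 ± 3.4 CPM in XX and 23.5 ± 0.66 CPM in XY- (log2 change -0.32 ± 0.08, edgeR adjusted p 0.0236, and -0.27 with 0.0441 without XX replicate 3). Mtor, Larp1 and Myc, with log2 changes of 0.05 ± 0.05, 0.07 ± 0.06 and -0.12 ± 0.07, did not pass. Eif4ebp1 had a log2 difference of 0.11 ± 0.07 between sex chromosomes over both gonad types (edgeR adjusted p 0.476).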

How the data were processed

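The authors deposited unnormalized counts of reads for each Ensembl gene in 12 columns, 1 a library, per the file headers. The submitters' processing notes name bcl2fastq 2.17, which converts base calls, and the build mm10. The aligner, counting program, strand setting and treatment of reads that match several places are not given in the sources used here. GENCODE M21 (mm10) matched 37693 of 39017 identifiers and supplied symbols, biotypes and exon lengths, and the 1324 unmatched identifiers held 0.597% of counts.

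The tests used edgeR 4.0.16 under R 4.3.3 (TMM factors, filterByExpr with minimum count 10 and minimum total 15, 1 mean per group over all 12 libraries, quasi-likelihood F-test, Benjamini-Hochberg over 14585 genes, called at an adjusted p under 0.05), with DESeq2 1.42.0 as an alternative. Levels per length are TPM computed from the counts and the joined length of all annotated exons of a gene. Shared sequence was found with 50-base words and BLAST+ 2.17.0 (at least 95% identity over 100 bases). Replicates differed by more than sampling noise (chi-square per degree of freedom 2.47 to 18.0), so each library counted once. The edgeR test was tried on simulated counts, and the outcome is not reported here.

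The members and lists were chosen with earlier results of these data known. Values are printed for members called in any comparison, on the X chromosome, among the 5 lowest p-values of a comparison, at the 3 highest or lowest levels of a subunit, paralogs, and members that failed the filter, and other members named were chosen after their values were seen. Some members and other genes that this rule names are not reported here. Mean comparisons share libraries with the single ones. Depth limits the members with few counts.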

Additional observations from a re-analysis of the deposited data

Results flagged for a closer look

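Rows outside the member list hold reads that match the members. The 237 rows named as pseudogenes of members had 329510 counts over the 12 libraries, and the 406 pseudogene rows that match a member at 95% identity or more, whatever their name, had 694457 counts, against 2792974 counts of the members. Both were flagged as signal in rows that the comparisons do not use. The most counted was Gm11478, which matches Rpl13a, with 69619 counts (16994 in XXSry, 18070 in XY-Sry, 16437 in XX and 18118 in XY-). How many of these reads came from the members themselves was not tested.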

How the results depend on the processing

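The median of the members kept its sign under every alternative run in all comparisons other than XY-Sry minus XY-, whose median lay near 0. The median in XX minus XY- ran from -0.145 to -0.043 without 1 library, lowest without XX replicate 2 and highest without XX replicate 3. With no filter edgeR called 3 members in XX minus XY-, 6 in XXSry minus XY-Sry, 11 in their mean, 6 in XXSry minus XX, 1 in XY-Sry minus XY-, 3 in the mean Sry comparison and 1 in the interaction. DESeq2 called 1 in XXSry minus XY-Sry, 3 in the mean sex chromosome comparison and 2 in the mean Sry comparison, and only the 2 groups XY-Sry and XY- gave 1. A length offset gave 0 and 2 in the mean sex chromosome and mean Sry comparisons, and 0 and 0 together with the replicate block. Without 1 library these counts ran from 0 to 3 and from 0 to 5.

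The replicate block gave 1 and 0, with Rpl27a at an edgeR adjusted p of 0.0513, and with the length offset as well Rpl27a was at 0.0587 and Rpl12 at 0.0584. Of 18 same-numbered pairs of libraries 5 had correlated deviations over 0.1 (range -0.16 to 0.23), so the numbers were not taken to pair the libraries. Differently numbered pairs ran from -0.29 (XY- replicate 2 with XXSry replicate 1) to 0.35 (XY- replicate 2 with XXSry replicate 3). A batch shared across the numbers was not tested. Adding near-identical pseudogenes to the members, an alternative chosen after seeing the data, gave 0 in the mean sex chromosome comparison and turned Rps29 in XX minus XY- to 0.008, Rps28 in the mean sex chromosome comparison to 0.014 and Rps25 in the interaction to 0.063, the last also with named pseudogenes alone. The cause of these changes with the other settings was not tested.

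The share of counts was 1.54% in XXSry, 1.63% in XY-Sry, 1.61% in XX and 1.65% in XY- without mitochondrial genes in the total. It was 1.68%, 1.77%, 1.74% and 1.79% in the same order with named pseudogenes, and 1.88%, 1.98%, 1.94% and 2.00% with near-identical ones. With named pseudogenes added the levels per length were 90.1 TPM for Rps13, 192.2 TPM for Rps16 and 1132 TPM for Rps26. Members with few counts are limited by depth, and counts of members with copies by the unknown treatment of shared reads.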
